A study of Caenorhabditis elegans with 4 samples.

Results

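This account covers the binding regions of the transcription factor UNC-39 that lay in the low-recombination centres of chromosomes II, III, IV and V of Caenorhabditis elegans. The positions of the regions are on WormBase WS180. A region was a member when its midpoint fell within fixed limits, applied to these positions as they stand: 4879000 to 12020000 on II, 3722000 to 10340000 on III, 3896000 to 12970000 on IV and 5897000 to 16550000 on V. Nothing in the sources used here gives the build on which the limits were drawn, so their exact place on WS180 is uncertain. Position alone chose the members. They numbered 345 of the 1082 regions in the combined list, or 31.9%, and were compared with the 276 combined regions in the flanks, meaning the rest of the same 4 chromosomes. The replicate 1 list held 123 centre regions among its 318, and the replicate 2 list held 342 among its 1077.

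The regions came from chromatin immunoprecipitation and sequencing (ChIP-seq) of embryos from a mixed population of males and hermaphrodites, grown at 20 °C and fixed with 2% formaldehyde. The study has 2 ChIP samples, precipitated with a goat antibody against GFP, and 2 input samples of total chromatin DNA. All 4 came from strain OP186, which carries unc119(ed3) and the transgene wgIs186, in which unc39 is followed by TY1, EGFP and FLAG tags and unc119 is restored. The transgene was brought in by bombardment and the strain was outcrossed 3 times, so the lists describe the tagged protein made from this transgene. The description field of the labels names the ChIP samples as input, and titles and source names were followed instead. No values of the input samples were analysed here. Nothing in the labels says that the 2 ChIP replicates came from separate cultures.

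UNC-39 is a homeodomain protein of the sine oculis family, known from genetics for roles in mesoderm and in neurons. The autosomes of C. elegans are divided into central domains in which crossing over is rare and arms in which it is frequent. Centres are known to be rich in conserved and broadly expressed genes, and arms in repeats and in younger gene families. The lists give a position and a q-value for each region, without genes or read counts. The depth behind each q is therefore unknown, and the genes and sequences at the regions were not analysed here.

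UNC-39 regions were denser in the centres than in the flanks over the 4 chromosomes. In the combined list most of the surplus over the length share lay on chromosome II. The centres had 10.3 regions per Mb (345 regions in 33.5 Mb) and the flanks 8.31 per Mb (276 regions in 33.2 Mb), a ratio of 1.24. The length share of the centres within each chromosome would give 308.7 regions where 345 were found (exact two-sided test on the sum of the 4 binomial counts, p = 0.0038). On II it would give 75 regions where 96 were found. Replicate 1 alone had 3.67 regions per Mb in the centres and 2.498 per Mb in the flanks, a ratio of 1.47 (same exact test, p = 0.00413). Without chromosome II the combined ratio was 1.12 over the other 3 chromosomes and did not pass (same exact test, p = 0.163). Replicate 1 was not tested without II. Its ratio was above 1 on III (1.32), IV (1.36) and V (1.29), though none of these passed. With each limit moved 500000 bp inward the combined ratio was 1.06 and did not pass (same exact test, p = 0.292).

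On chromosome II the centre held 96 regions, or 13.4 per Mb, and the flanks 62, or 7.85 per Mb. The ratio was 1.71, with a 95% exact interval from 1.23 to 2.4. The adjusted p was 0.00411 by an exact binomial test on both sides, corrected for the 4 chromosomes by the method of Benjamini and Hochberg. Replicate 1 gave 37 regions in this centre and 19 in the flanks, a ratio of 2.16 (1.21 to 3.97; same exact test, adjusted p = 0.0277). With the limits moved 500000 bp inward the ratio on II was 1.07 (same exact test, adjusted p = 0.726).

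The other chromosomes did not pass the test. The centre of III was the densest, with 100 regions at 15.1 per Mb, but its flanks were dense too, with 85 regions at 11.9 per Mb (ratio 1.27, 0.942 to 1.72; exact test, adjusted p = 0.212). The centre of V had 84 regions at 7.89 per Mb, against 64 at 6.32 per Mb in its flanks (ratio 1.25, 0.89 to 1.75; exact test, adjusted p = 0.252). On IV the order was the other way in the combined list, with 65 regions at 7.16 per Mb in the centre and 65 at 8.06 per Mb in the flanks (ratio 0.888, 0.62 to 1.27; exact test, adjusted p = 0.539). In replicate 1 the ratio on IV was 1.36 (0.735 to 2.56), from 29 centre and 19 flank regions. Whether the ratio differed between chromosomes was not tested. The tests treat regions as independent. With regions joined over gaps of at most 2000 bp, the ratio over all 4 chromosomes was 1.24 (exact test, p = 0.00593). Joining does not remove unevenness over longer distances: windows of 1000000 bp in the centre of II held 9 to 25 regions. The p-values of these tests may therefore be too small.

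**Figure D1:**
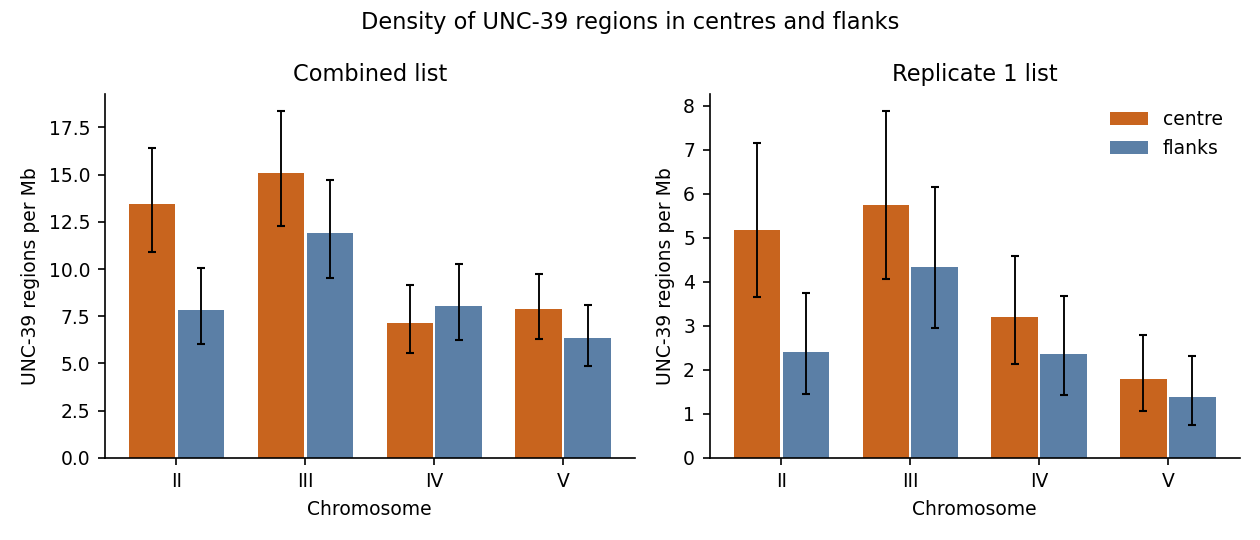
UNC-39 regions per Mb in the centre and in the flanks of each chromosome, for the combined list (left) and the replicate 1 list (right). Bars are counts divided by length and lines are 95% exact Poisson intervals, which cover counting error only. Chromosome II has 13.4 per Mb in the centre and 7.85 per Mb in the flanks of the combined list, and IV is the chromosome whose order differs between the lists.

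The number of regions varied along each centre, with the widest ranges of counts on II and III. Whether any centre departed from an even spread was not tested, and the counts per part on IV and V are small. Each centre was divided into 10 parts of equal length. On II, the last part held 24 of the 96 regions and 11 of these were also met in replicate 1, while the part before it held 4. On III, the first and second parts held 19 and 17 of the 100 regions, and the eighth part held 15, of which 9 were met in replicate 1. The emptiest part of III held 5. On IV the parts held between 2 and 12 regions, with the most in the first and the fewest in the last. On V they held between 5 and 13, with the most in the first. In the combined list the fullest part thus lay beside the upper limit on II and beside the lower limit on III, IV and V. Counting the members met in replicate 1, this was so on II, with 11 in the last part. On III the most were 9 in the eighth part, against 8 in the first. On IV they were 7 in the fourth part against 5 in the first, and on V 4 in the sixth part against 1 in the first.

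**Figure D2:**
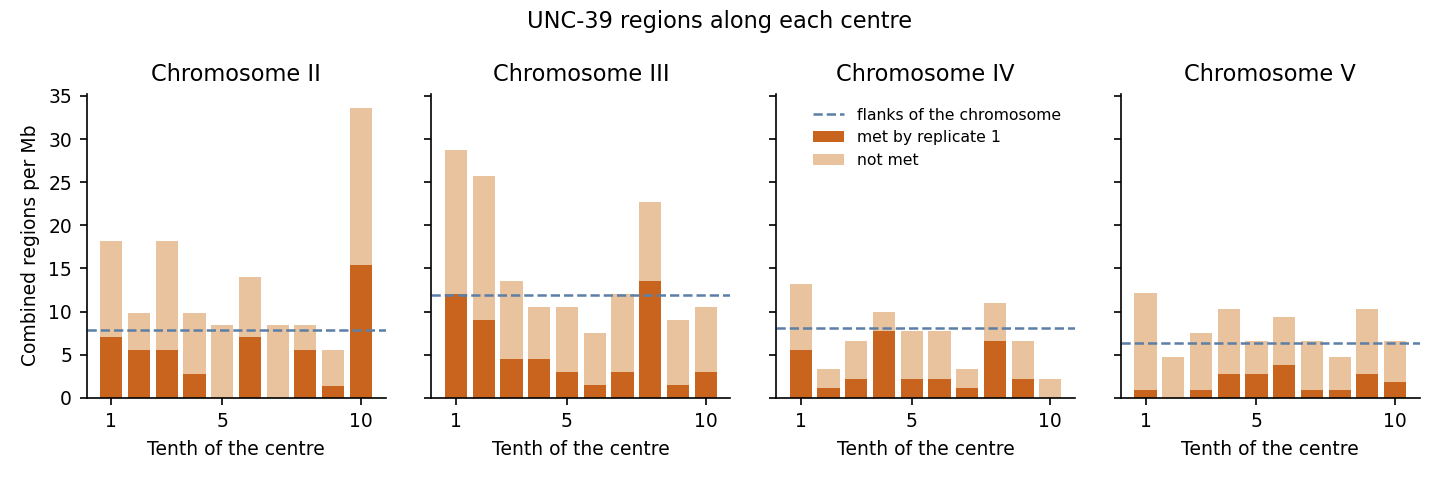
Combined UNC-39 regions per Mb in each of the 10 equal parts of the centre, from the lower to the upper limit, by chromosome. The dark part of a bar is the share also met by a replicate 1 region, and the dashed line is the density in the flanks of that chromosome. The last part of II (24 regions) and the first of III (19 regions) stand highest.

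By distance from the 8 limits, the density in the combined list was highest just inside the limit, and chromosome II set that order. The outer 0.5 Mb of the centres held 62 regions in 4 Mb, or 15.5 per Mb (95% exact Poisson interval 11.9 to 19.9). The next 0.5 Mb inward held 56, or 14 per Mb (10.6 to 18.2), and the 0.5 Mb after that 34, or 8.5 per Mb (5.89 to 11.9). The first 0.5 Mb outside the limit held 45 regions, or 11.25 per Mb (8.21 to 15.1), and the next held 19, or 4.75 per Mb (2.86 to 7.42). Of the 62 regions in the outer ends, 29 lay on II, 17 on III, 10 on V and 6 on IV. The next 0.5 Mb inward held 14 on II, 23 on III, 10 on V and 9 on IV. Without II the outer ends had 11 regions per Mb (33 in 3 Mb, 7.57 to 15.4) and the next step 14 per Mb (42 in 3 Mb, 10.1 to 18.9). The first step outside then had 11 per Mb and the next 5.33 per Mb. On IV the first step outside, with 12 regions, held more than any step inside. In replicate 1 the density was 5 per Mb in the outer 0.5 Mb, 6 per Mb in the next and 3 per Mb after that, against 2.75 and 2.25 per Mb in the first and second 0.5 Mb outside. The inner part of the centres, without the outer ends, had 9.598 regions per Mb. With the outer ends left out of both parts, the ratio of the inner centres to the flanks was 1.16 (exact test, p = 0.0507), and 1.39 on II (exact test, adjusted p = 0.251). In replicate 1 with the limits moved inward the ratio was 1.26 (exact test, p = 0.0488). These distances were chosen after the ends were seen to matter. The cause was not tested.

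**Figure D3:**
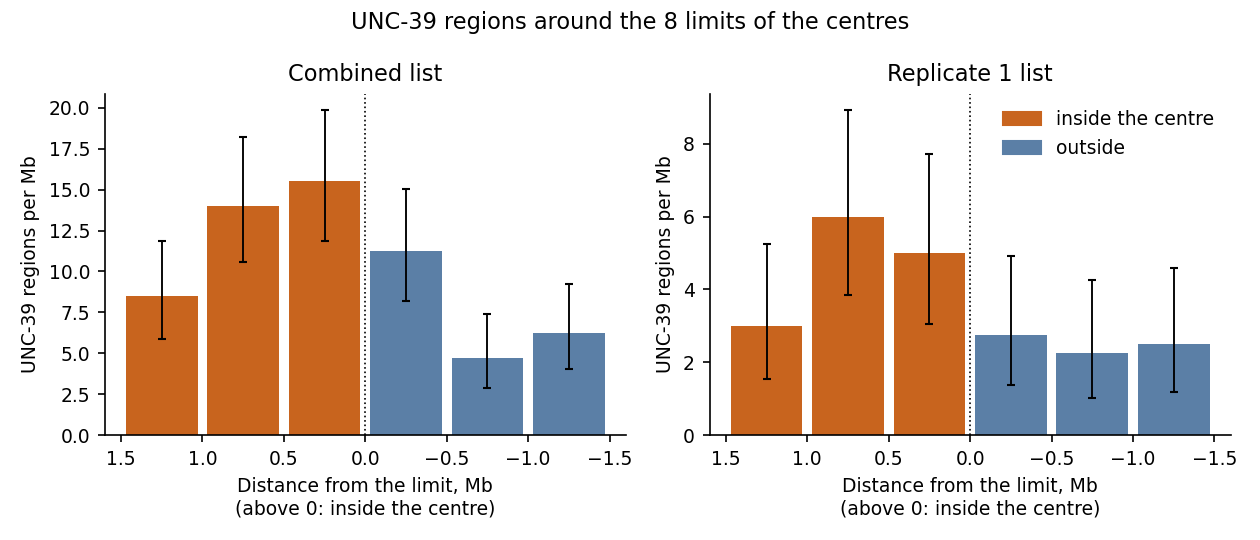
UNC-39 regions per Mb by distance from the 8 limits of the centres, in steps of 0.5 Mb, for the combined list (left) and replicate 1 (right); values above 0 are inside a centre. Lines are 95% exact Poisson intervals. In the combined list the step just inside (15.5 per Mb) and the step just outside (11.25 per Mb) are both above the steps from 0.5 to 1.5 Mb outside, and 29 of the 62 regions in the step just inside are on II.

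The 1000000 bp windows that lay wholly inside a centre differed in the same way. On II, 7 windows held 9 to 25 regions with a median of 10, and the fullest was 11000001 to 12000000, where 12 of the 25 were met in replicate 1. On III, 6 windows held 9 to 26 with a median of 13.5, and the fullest was 4000001 to 5000000, where 8 of the 26 were met. On IV, 8 windows held 5 to 12, with the most from 4000001 to 5000000. On V, 10 windows held 4 to 13, with the most from 6000001 to 7000000. That window on V held 13 regions of which 1 was met in replicate 1, and its smallest q was 2.2e-10.

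The strongest centre regions, ranked by q from the smallest, were present in both replicate lists. Strength here means a small q, and q reflects sequencing depth as well as binding. The first 37 centre regions by q were all met by a replicate 1 region. This was not particular to the centres. Among the 125 regions of II to V with the smallest q, replicate 1 met 72 of 78 in the centres and 42 of 47 in the flanks. Replicate 2 met 338 of the 345 members of any q, so presence in that list says little about the strongest. Of the 100 smallest q-values on chromosomes II to V, 60 lay in a centre (95% Wilson interval 50.2 to 69.1%), and of the 50 smallest, 33 did (52.2 to 77.6%). The centres hold 55.6% of all the combined regions of these chromosomes, a share inside both intervals, and 50.2% of their length.

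On chromosome IV the strongest centre region was narrow and ranked high in every list. It ran from 7486210 to 7486569, a width of 360 bp, with q = 7.56e-37 both in replicate 2 and in the combined list. In replicate 1 it had q = 1.02e-21, and its rank was 3 in each list. A second region began 1346 bp after its end, and that neighbour was met in replicate 1 as well. The next on IV were 8333946 to 8334313 (368 bp, q = 7.98e-25, and 3.19e-14 in replicate 1) and 11025880 to 11026428 (549 bp, q = 1.81e-23, and 2.08e-12 in replicate 1). The regions 6645718 to 6646506 and 11142490 to 11142775 had q = 8.54e-17 and 1.95e-16. All 5 had a smaller q in replicate 2 than in replicate 1.

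On chromosome V the strongest was a wider region, 9342982 to 9344566, whose combined q was 1.66e-35 and whose q in replicate 1 was 4.44e-14. Its counterpart in replicate 1 spanned 9343846 to 9344566, so it covered 721 of the 1585 bp and shared the same end. The region 14364428 to 14388185 was second, with q = 7.45e-28, and is described with the widths. The others of the first 5 on V were 11313977 to 11314509 (q = 1.15e-24), 8500369 to 8500812 (q = 1.44e-21) and 12303316 to 12303778 (q = 6.8e-19). Their ranks in the combined list were 17, 30 and 41, and in replicate 1 they were 42, 60 and 99 of 318. Ranks in lists of different length show no change in binding.

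On chromosome II the strongest centre region was 5661611 to 5662895 (1285 bp), whose combined q was 8.46e-27 (rank 14) and whose q in replicate 1 was 5.23e-17 (rank 10). It was followed by 10548622 to 10549762 (q = 9.45e-20), 5543416 to 5543960 (q = 1.82e-18), 11305680 to 11306269 (q = 3.32e-16) and 11749155 to 11750237 (q = 3.76e-16). In replicate 1 the region 5543416 to 5543960 had the second smallest q of these 5, at 5.19e-14.

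On chromosome III the strongest centre region was 3867186 to 3867880 (695 bp), whose combined q was 5.94e-23. In replicate 1 it spanned 337 bp and had q = 3.64e-13. The next were 8799795 to 8800843 (q = 1.79e-19), 9765327 to 9765829 (q = 2.5e-17), 8416907 to 8417905 (q = 4.15e-17) and 4568552 to 4568859 (q = 9.19e-16). No centre region of III ranked among the first 20 of the combined list, where II had 1, IV had 2 and V had 3.

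Over all members the q-values differed little by chromosome. The median −log10 q was 6.49 on II, 6.08 on IV, 5.91 on III and 5.82 on V, where a higher value is a smaller q. Over the 4 centres it was 6.06, with quartiles at 4.94 and 8.64, against 5.87 in the flanks, with quartiles at 4.75 and 7.69. The difference in medians was 0.19, and it was 0.38 in replicate 1 and 0.24 in replicate 2. The smallest q of the flanks, 3.02e-64, was smaller than any in the centres. These differences were not tested.

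Support from replicate 1 was common among members with a small q and rare among the others. Replicate 1 met 120 of the 345 centre regions with an overlap of at least 1 bp, or 34.8% (95% Wilson interval 29.9 to 39.95%), against 79 of the 276 flank regions, or 28.6% (23.6 to 34.2%). Over all 1082 combined regions the share was 28.6%. The difference between centres and flanks was 6.16 percentage points, with a 95% Newcombe interval of -1.24 to 13.4 that includes no difference. Replicate 2 met 338 of the 345 centre regions, or 97.97%, against 98.4% of all combined regions. No region of the centres or the flanks was met by replicate 1 alone. Neither replicate list met 7 of the 345 centre regions and 9 of the 276 flank regions, with 4 on II in each part.

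Support from replicate 1 varied between the centres. It was 43.1% on IV (28 of 65 regions, 31.8 to 55.2%), 37.5% on II (36 of 96, 28.5 to 47.5%), 37% on III (37 of 100, 28.2 to 46.8%) and 22.6% on V (19 of 84, 15 to 32.6%). In the flanks of the same chromosomes it was 27.7% on IV, 30.6% on II, 32.9% on III and 21.9% on V. The share in the centre was the higher on each chromosome, and the interval of the difference included 0 on each, from 15.4 points on IV (-1.03 to 30.7) to 0.744 points on V (-13.1 to 13.8).

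Within classes of like q, the interval of the difference in support between centres and flanks included 0 in every class. The 621 combined regions of the 4 chromosomes were ordered by q and cut into 5 classes of 124 or 125 regions. In the class with the smallest q, replicate 1 met 72 of 78 centre regions (92.3%) and 42 of 47 flank regions (89.4%), a difference of 2.95 points (95% Newcombe interval -7.13 to 15.6). In the second class it met 30 of 68 centre regions (44.1%) and 23 of 56 flank regions (41.1%). In the third it met 14 of 65 and 12 of 59. In the fourth it met 3 of 69 centre regions and 1 of 55 flank regions, and in the last 1 of 65 and 1 of 59. The centres held 62.4% of the regions in the class with the smallest q and between 52.4 and 55.6% in the others.

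For members met by both replicate lists, the median combined −log10 q was 9.68 and the median width 422 bp. Those met by replicate 2 alone had medians of 5.296 and 323.5 bp, and the 7 met by neither had medians of 4.39 and 327 bp. The strongest member that replicate 1 lacked lay on II from 7199983 to 7200462, with q = 4.89e-13. The next lay on IV from 10868827 to 10870314, with q = 8.01e-13, and was the widest centre region of that chromosome at 1488 bp. Absence from the replicate 1 list does not show absence of binding, since that list is shorter and its depth is unknown.

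In the 120 members with a partner in each replicate list, q was smaller in replicate 2 for 117. The median −log10 q of these partners was 9.64 in replicate 2 and 6.04 in replicate 1. The median difference was 4.29 on V, 3.88 on II, 3.39 on III and 3.2 on IV. Over the 120 pairs, Pearson's r between the −log10 q values of the 2 lists was 0.83. Leaving out the 2 pairs most distant from the replicate 1 median gave r = 0.77. These correlations describe regions, which share a library within each list and are not replicates; whether replicate 2 drew on reads of replicate 1 is not known.

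A single centre region departed from this pattern by a wide margin. The region on III from 7446775 to 7447882 had q = 4.18e-15 in replicate 1, its 13th strongest region and the strongest of the replicate 1 list in the centre of III. In replicate 2 the same stretch had q = 2.48e-06 and ranked 622 of 1077. Its borders were nearly the same in both lists, with widths of 1108 bp in replicate 2 and 1104 bp in replicate 1. On III, Pearson's r was 0.60 with all 37 pairs and 0.81 after leaving out the 2 most distant pairs, of which this was the more distant. The other 2 members with a smaller q in replicate 1 differed little between the lists: 4640753 to 4641006 on IV had q = 7.04e-06 in replicate 1 and 3.28e-05 in replicate 2, and 14769373 to 14769749 on V had q = 3.32e-06 and 4.01e-06. These 3 were named after their values were seen.

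**Figure D4:**
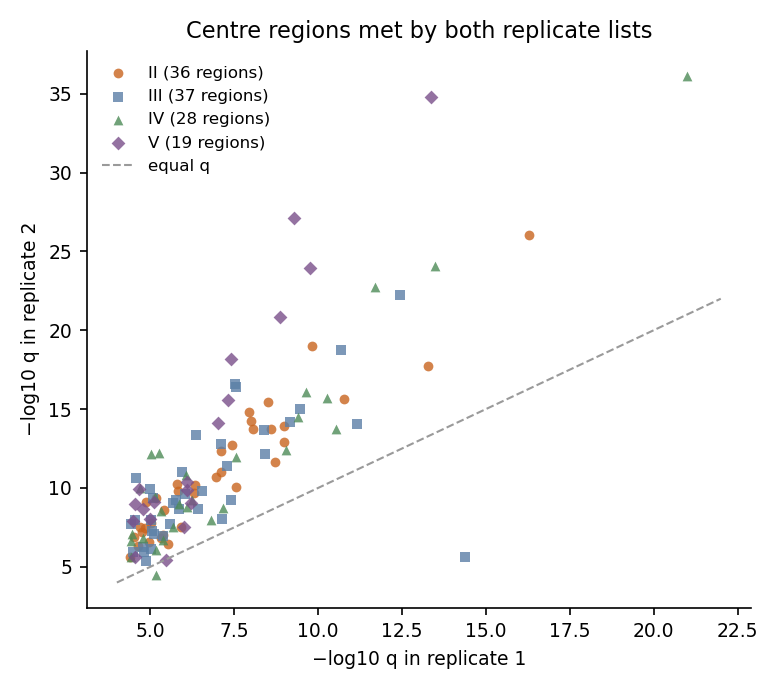
The −log10 q of each of the 120 centre regions met by both replicate lists, in replicate 1 (horizontal) and replicate 2 (vertical), by chromosome; points above the dashed line have the smaller q in replicate 2. All but 3 points lie above it, and the point far below it is the region on III with q = 4.18e-15 in replicate 1 and 2.48e-06 in replicate 2.

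The replicates placed these members at nearly the same positions. The midpoints of the partners in the 2 lists were a median of 16.5 bp apart, and 109 of the 120 pairs were within 100 bp. The region was wider in replicate 2 in 115 pairs, with a median of 418 bp there and of 342.5 bp in replicate 1. The largest shift of a midpoint was 432 bp, on V.

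Centre regions had a median width of 347 bp, with quartiles at 242 and 547 bp, against 365 bp in the flanks, with quartiles at 239 and 678 bp. Medians in the centres were 385 bp on IV, 379 bp on II, 333 bp on III and 277.5 bp on V. In the flanks they were 388 bp on IV, 334.5 bp on II, 341 bp on III and 420 bp on V. The lower quartile of the widths was thus nearly equal in centres and flanks, and the upper quartile was lower in the centres.

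In the combined list, regions wider than 1000 bp were a smaller share of the centre regions than of the flank regions. They made up 18 of 345 centre regions (5.22%) and 34 of 276 flank regions (12.3%), a difference of -7.1 percentage points (95% Newcombe interval -11.9 to -2.67). The difference was widest on V, with 3 of 84 centre regions (3.57%) and 14 of 64 flank regions (21.9%), a difference of -18.3 points (-30.1 to -7.76). The interval included 0 on II, III and IV. On II the centre had the higher share, at 6.25% against 4.84% in the flanks. In replicate 1 the shares were 4.07% of 123 centre regions and 8.43% of 83 flank regions, a difference of -4.37 points (-12.7 to 2.29). Of the 14 wide flank regions of V, 13 were not met in replicate 1. The limit of 1000 bp was chosen after widths were seen, and the intervals take regions as independent. Among regions met by both replicate lists, 12 of 120 in the centres and 12 of 79 in the flanks were wider than 1000 bp. The centre had the higher share on II (4 of 36 against 1 of 19) and V (2 of 19 against 1 of 14). It had the lower share on III (4 of 37 against 5 of 28) and IV (2 of 28 against 5 of 18). The median width of these regions was 422 bp in the centres and 553 bp in the flanks.

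**Figure D5:**
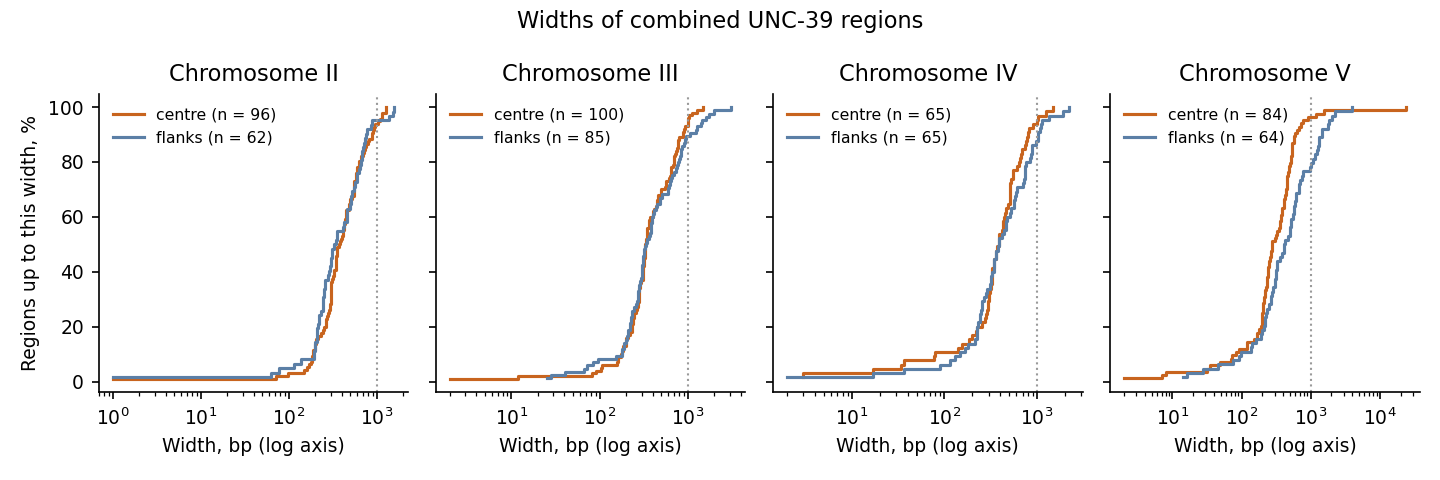
Cumulative share of combined UNC-39 regions by width (log axis), in the centre and in the flanks of each chromosome; the dotted line marks 1000 bp. On V, 96.4% of the centre regions and 78.1% of the flank regions are at most 1000 bp wide, and the centre curve ends with the region of 23758 bp.

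The widest region on chromosomes II to V in any list lay in the centre of V, from 14364428 to 14388185, with a width of 23758 bp. It had q = 7.45e-28 in replicate 2 and in the combined list. In replicate 1 it spanned 14364439 to 14388156, 23718 bp, with q = 5.2e-10. Whether its width reflects binding along the whole stretch was not tested, and no input values or copy numbers in this transgenic strain were analysed. The next widest centre region of V had 1585 bp. This region made up 45.2% of the 52.6 kb covered by members on V, which covered 28.8 kb without it. The other centres were covered by 44.2 kb of regions on II, 44.3 kb on III and 28.7 kb on IV. Their widest members were 5661611 to 5662895 on II (1285 bp), 3868173 to 3869667 on III (1495 bp, q = 1.65e-09) and 10868827 to 10870314 on IV (1488 bp). Those on III and IV were not met in replicate 1.

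At the other end, 14 of the 345 members were narrower than 50 bp, a share close to that in the flanks (11 of 276 regions). Of the 14 members, 6 lay on V, 5 on IV, 2 on III and 1 on II. None was met in replicate 1 and 12 were met in replicate 2. The narrowest was a single position on II, 7053550, with q = 3.44e-05. The narrowest on III (4082299 to 4082300), V (9562039 to 9562040) and IV (4429332 to 4429334) spanned 2, 2 and 3 bp. The smallest q among the 14 was 2.44e-06 and the largest 5.3e-05. In the classes of like q that span these values, replicate 1 met few centre regions of any width. It met 14 of 65 with q from 1.64e-07 to 3.62e-06 and 3 of 69 from 3.63e-06 to 1.96e-05. From 1.97e-05 to 5.37e-05 it met 1 of 65. Whether narrow members were met less often than others of like q was not tested.

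Neighbouring members were a median of 60.1 kb apart, from the end of a region to the start of the next, against 72.3 kb in the flanks. The median gap was 46.4 kb on II, 51.3 kb on III, 89.7 kb on IV and 90.5 kb on V, and gaps over 200 kb numbered 11, 6, 16 and 19 in the same order. The longest gaps were 387 kb on II (9646467 to 10033498), 351.5 kb on III (6453930 to 6805436), 722 kb on IV (9781581 to 10503713) and 680 kb on V (13120395 to 13800374). Neither replicate list had a region within any of these 4 gaps. This is not separate support, since few centre regions of either replicate list met no combined region. In replicate 1 the median gap was 119 kb in the centres and 346 kb in the flanks.

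Close regions were a small share of the members. A gap of at most 2000 bp followed 25 of 341 neighbouring pairs of members (7.33%) and 19 of 268 in the flanks (7.09%). By chromosome there were 9 such pairs on II, 7 on III, 7 on IV and 2 on V. The smallest gap was 211 bp, between the strongest region of II and the one before it. These pairs formed 22 runs that held 47 members, 16 on II, 14 on IV, 13 on III and 4 on V. Members in runs had a median width of 506 bp and those alone 329 bp, with a median −log10 q of 7.32 and 5.91. Replicate 1 met 40.4% of the 47 members in runs (27.6 to 54.7%) and 33.9% of the 298 alone (28.8 to 39.4%). In 12 of the 22 runs it met some members and not others, in 7 none and in 3 all.

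Runs of 3 members, the longest in the centres, occurred on II and III. On II from 11633811 to 11637661 the members had q = 2.02e-11, 6.01e-09 and 1.14e-10 in order of position, and the first and the last were met in replicate 1 with q = 1.13e-07 and 6.91e-06. On II from 11958200 to 11960997 the members had q = 9.38e-06, 4.91e-05 and 1.14e-13. Of these the last was met in replicate 1, and the middle member was in neither replicate list. On III from 7729195 to 7734467 the members had q = 2.72e-05, 3.58e-07 and 6.64e-13, and again the last was met in replicate 1, with q = 3.82e-09. In each run the member with the smallest q was met in replicate 1. These members belong to the class with the smallest q, where replicate 1 met 92.3% of all centre regions. The strongest regions of II, III and IV each stood in a run of 2. Whether the members of a run are separate sites was not tested.

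Of the 345 members, 280 (81.2%) were identical to a replicate 2 region in borders and q, against 219 of the 276 flank regions (79.3%). On II the share in the centre was 57.3% (55 of 96), on III 89%, on IV 95.4% and on V 88.1%. In the flanks it was 53.2% on II, 84.7% on III, 87.7% on IV and 89.1% on V. The lower share on II was thus not particular to its centre. The differing members stood in unbroken blocks: on II these were the 14 members from 6248499 to 6951672, the 25 from 11042679 to 11974398 and the first 2 members of the centre. On III there were 11 from 9053819 to 9990497, on IV a block of 3 and on V blocks of 4 and 6. The block of 25 on II lies in the part of that centre where regions were densest, and 19 of these 25 were in the outer 0.5 Mb. Of the 58 differing members that still met a replicate 2 region, 55 had both borders within 50 bp of it and 27 had the same q. Because the combined list follows replicate 2 this closely, its densities and those of replicate 2 are not separate measurements.

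Some regions of the replicate lists in the centres had no place in the combined list. In replicate 1, 3 centre regions met no region of replicate 2 or of the combined list: 8901245 to 8901575 on II (q = 1.94e-05), 10224449 to 10225338 on III (q = 6.13e-06) and 9048085 to 9048468 on IV (q = 2.07e-05). Their ranks were 268, 209 and 273 of 318. In replicate 2, 4 centre regions met no combined region, and the smallest q among them was 1.19e-05, on III.

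The regions next to the limits were mostly weak. On II the members nearest to the limits were 4942279 to 4942825 (q = 8.7e-06) and 11974148 to 11974398 (q = 8.01e-06), and the regions just outside were 4851607 to 4851721 (q = 2.54e-05) and 12102358 to 12102600 (q = 1.96e-05). On III the members were 3789740 to 3790157 (q = 4.04e-06) and 10294001 to 10294234 (q = 4.65e-05), with 3664251 to 3664550 (q = 4.18e-15) and 10422682 to 10422833 (q = 4.38e-05) just outside. On IV the members were 4024605 to 4025041 (q = 9.15e-07) and 12686021 to 12686037 (q = 5.3e-05), with 3848738 to 3849252 (q = 2.01e-05) and 13013105 to 13013825 (q = 3.5e-05) just outside. On V the members were 6019103 to 6019552 (q = 1.81e-05) and 16369996 to 16370319 (q = 1.15e-05), with 5827355 to 5827871 (q = 5.1e-07) and 16592176 to 16592392 (q = 1.84e-05) just outside. Of these 16 regions, replicate 1 met those on either side of the lower limit of III and no others.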

How the data were processed

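Regions were read from 3 deposited lists, 1 for each ChIP replicate and 1 combined. The lists were made with PeakSeq, per the source column of the files, on WormBase WS180, per the file headers. The deposited value of a region is a q-value, per the attribute column of the files. Start and end are deposited positions in bp, counted from 1. Not given in the sources used here are the PeakSeq settings, aligner, control, q threshold and way of combining.

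Members were found by midpoint. Lengths ran from the first to the last region of any list on a chromosome, less the centre for the flanks, since no WS180 sequence was at hand. Centre counts were tested with exact binomial tests against the centre's share of that length, adjusted by Benjamini-Hochberg over 4 chromosomes (threshold 0.05), and together by the exact distribution of the summed counts. The tests were tried on simulated positions placed evenly and independently within centres and flanks. Those simulations lack the uneven spread seen here, so they do not show how the tests behave with it. Shares had 95% Wilson intervals and differences Newcombe intervals, for counting error only. Overlap meant at least 1 bp. The work used Python 3.11.15 with scipy 1.17.1, numpy 2.4.6, matplotlib 3.10.9 and pandas 2.3.3.

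The members, tests and alternatives were chosen with earlier results of these data known. The regions named are the 5 smallest q, the widest and the narrowest member and the longest gap of each centre, its fullest 1000000 bp window, runs of 3 or more with gaps of at most 2000 bp, regions beside the limits and replicate 1 regions without a replicate 2 partner. Others were named after their values were seen. Genes, sequences and motifs were left out, since the gene table at hand is on assembly WBcel235. Alternatives covered the list used, q, width, overlap, gap, limits and span.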

Additional observations from a re-analysis of the deposited data

How the results depend on the processing

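Of 92 values under alternatives, over 11 results, 76 kept their side of the threshold or stayed close to the reported value. That count is not a measure of robustness. On III, IV and V a ratio counted as kept whenever it did not pass, whatever its size, and all 11 alternatives on each were so counted. The shares met by replicate 1 and by both lists were equal in every setting, so they are not separate results. The excess over all 4 chromosomes had a ratio above 1 in all 15 alternatives and passed the exact test in 12. It failed with the limits moved 500000 bp inward (1.06), without chromosome II (1.12) and with the outer ends left out of both parts (1.16). On II the ratio failed with the limits moved inward (1.07), with the outer ends left out (1.39) and in replicate 1 with the limits moved inward (1.26). The last 2 settings were chosen after seeing the data. Limits moved inward count the outer 0.5 Mb of each centre as flank, while the setting without the outer ends counts them in neither part. The cause of the lower ratios was not tested. On IV the ratio was below 1 in 6 of 11 alternatives and never passed. Support from replicate 1, and from both lists, was 63.2% in the members within the stronger 541 regions. The difference in median width, -18 bp, ranged from -53 to -30.5 bp over the replicate lists and was -131 bp in regions met by both. The difference in median −log10 q ranged from 0.24 to 0.38 over the replicate lists, was 0.46 in regions met by both and 0.025 with the limits moved outward. Close pairs numbered 15 with gaps up to 1000 bp, 42 up to 5000 bp and 4 to 23 over the replicate lists. No paired analysis was possible because the 2 ChIP replicates are the only samples with lists analysed here, and they belong to 1 group. Depth is unknown, so absence from the replicate 1 list has no detection limit.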
